A study of Mus musculus with 3 samples.

Results

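This account is about 10 mouse genes of the contractile apparatus, the alpha and gamma actins of muscle (Acta1, Acta2, Actc1 and Actg2), the actin-binding proteins transgelin and calponin (Tagln and Cnn1), the myosin regulatory light chains Myl9 and Mylpf, and the tropomyosins Tpm1 and Tpm2. They were taken by their symbol in the probe table of the array platform, which held 15 probes for 9 of the 10 genes, of 25697 probes and 16593 gene symbols on the array. No probe carried the symbol Myl9, and that gene has no value here. The genes had been put forward with the signals of these same arrays in view, so their levels are given as a description, with no test.

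The arrays were Illumina mouse bead arrays, 1 for each of 3 pluripotent cell lines. E3, from a hybrid background, and T9, from a 129 background, are epiblast stem cell (EpiSC) lines, cells that resemble the epiblast of the implanted embryo. Both were grown in KSR medium with FGF2 at 5 ng/ml on inactivated CF1 mouse embryonic fibroblasts and taken off with collagenase IV at subconfluence, by a protocol meant to carry over few feeder cells. OG2, also from a hybrid background, is an embryonic stem cell (ESC) line, cells that resemble the epiblast before implantation. It was grown in KSR medium on gelatin, without feeders, with LIF (1000 U) and 2 inhibitors, CHIR99021 (3 uM) against GSK3 and PD0325901 (1 uM) against MEK, and was lysed on its dish. Each group was thus a model with few lines, 2 EpiSC lines and 1 ESC line, and line, medium, feeders and harvest cannot be told apart.

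Actin filaments slide past myosin in muscle, and tropomyosin lies along the filament and gates access to it. In striated muscle the filaments form sarcomeres, with Acta1 as the skeletal and Actc1 as the cardiac alpha-actin and Mylpf as the regulatory light chain of fast skeletal myosin. In smooth muscle Acta2 and Actg2 are the vascular and enteric actins, Myl9 is the myosin light chain whose phosphorylation triggers contraction, and Tagln and Cnn1 bind the filament. Several of these genes are also active outside muscle: Acta2 and Tagln mark activated fibroblasts, and Tpm1 and Tpm2 give rise to non-muscle tropomyosins. The serum response factor SRF, with its cofactors of the myocardin family, drives many of them through a DNA element called the CArG box.

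The promoter sequences of 4 of these genes are shown because each holds a CArG box or a box with 1 changed core letter, and because these 4 genes spanned wide ranges between lines. RefSeq (GRCm38.p6) gave a window from 250 bases before to 50 bases after the start for 8 of the 10 genes. The 250 bases before the start are printed 5′ to 3′ on the transcript's strand, with capitals for a CArG box (a pair of C, a core of 6 A or T letters and a pair of G) or for a box with 1 core letter changed to G or C. They lie at chr8:123894776-123895025 (minus strand) for Acta1, chr19:34255374-34255623 (minus strand) for Acta2, chr2:114052876-114053125 (minus strand) for Actc1 and chr7:127211358-127211607 (plus strand) for Mylpf.
Acta1: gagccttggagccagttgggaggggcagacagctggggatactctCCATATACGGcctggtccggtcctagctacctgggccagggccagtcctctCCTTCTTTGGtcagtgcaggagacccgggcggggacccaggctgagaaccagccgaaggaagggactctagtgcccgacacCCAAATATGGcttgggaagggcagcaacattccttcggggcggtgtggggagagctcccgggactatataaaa
Acta2: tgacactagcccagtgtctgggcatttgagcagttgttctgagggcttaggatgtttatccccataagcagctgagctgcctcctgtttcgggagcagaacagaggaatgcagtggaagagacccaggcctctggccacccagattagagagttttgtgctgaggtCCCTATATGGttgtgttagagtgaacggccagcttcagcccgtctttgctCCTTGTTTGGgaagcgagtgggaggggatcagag
Actc1: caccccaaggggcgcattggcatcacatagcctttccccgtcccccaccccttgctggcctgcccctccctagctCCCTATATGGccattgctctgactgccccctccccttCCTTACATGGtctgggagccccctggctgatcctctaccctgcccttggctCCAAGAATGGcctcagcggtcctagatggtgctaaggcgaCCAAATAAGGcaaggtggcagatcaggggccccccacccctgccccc
Mylpf: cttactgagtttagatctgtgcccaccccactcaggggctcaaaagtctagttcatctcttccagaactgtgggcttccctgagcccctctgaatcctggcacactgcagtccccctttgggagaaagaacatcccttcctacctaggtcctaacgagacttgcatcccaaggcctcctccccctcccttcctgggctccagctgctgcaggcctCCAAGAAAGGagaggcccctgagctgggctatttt

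A full CArG box was found in 3 of the 8 windows, those of Acta1 (CCAAATATGG, from -73), Actc1 (CCAAATAAGG, from -47) and Myl9 (CCTAATAAGG, from -161), against 1.63% of 32841 RefSeq promoter windows of the same length. Counting boxes with 1 changed core letter, 5 of the 8 windows held at least 1, against 9.98% of all windows. Actc1 had 4, Acta1 3, Acta2 and Myl9 2 each, and Mylpf 1. Acta2 and Actc1 both held CCCTATATGG, from -84 in Acta2 and from -175 in Actc1. Neither Cnn1, Tpm1 nor Tpm2 had a box of either kind in its window. The MCAT motif CATTCC, the element of the TEAD factors, was found on either strand in Acta1, Acta2 and Tpm1 (3 of 8, against 14.7% of all windows). The E box CANNTG, the element of the myogenic basic helix-loop-helix factors, was found in all 8 windows, as in 72.3% of all windows. TATAAA on either strand was found in Acta1 (from -7) and in Actc1 (from 33, after the start), and in 13.6% of all windows. Positions are counted from the RefSeq start, which was not checked against the start used in these cells. No match of 1 kind overlapped a match of another. These are matches of letters and were not tested as binding sites.

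**Figure D1:**
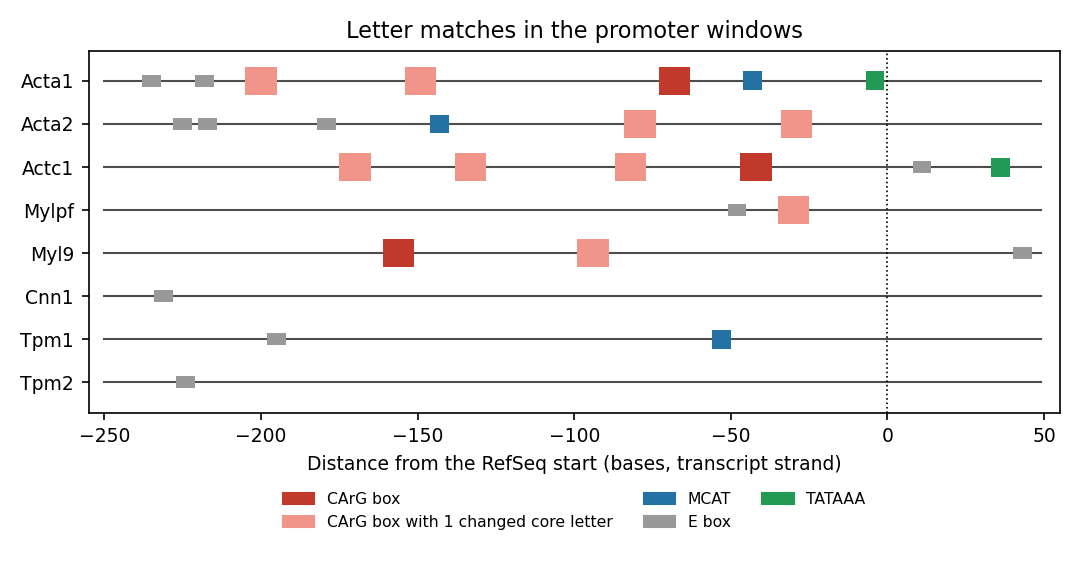
Each line is the promoter window of 1 gene, with the distance from the RefSeq start in bases on the x axis and coloured boxes at letter matches to 4 motifs. Acta1, Actc1 and Myl9 hold a full CArG box, Acta2 and Mylpf only boxes with 1 changed core letter, and Cnn1, Tpm1 and Tpm2 none.

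The lines carried the markers of their labels. The 4 tested naive ESC markers Esrrb, Zfp42, Klf4 and Tbx3 were lower in EpiSC, each with an adjusted p between 0.0317 and 0.0342 by limma, and Nr0b1 was detected on no array. Of the 4 EpiSC markers Fgf5 and Pou3f1 were higher with the same test, while Otx2 and Zic2 did not pass (limma adjusted p = 0.0781 and 0.115). None of 4 shared pluripotency markers passed, and Pou5f1 had a level of 12.65 in E3 and 12.41 in T9, compared with 12.53 in OG2. A probe is called detected here where its detection p-value, the share of negative control beads at least as bright, was under 0.01, which held for 10791 probes in E3, 11171 in T9 and 10768 in OG2.

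Of the 15 contractile gene probes 9 were detected on all 3 arrays, 1 on 2, 2 on 1 and 3 on none. The 12 probes detected somewhere stood for 8 genes, since 4 of them target Acta2 and 2 target Actc1. Deposited signals are given below with the standard error over the beads of a probe, which covers the error within 1 array only. Gaps in combined bead standard errors compare these signals before normalization and hold no spread between arrays or cultures. Lines are called separated, apart or not resolved in that sense only. Differences between lines are then given as log2 of the background-corrected, quantile-normalized level. The actins code for nearly identical proteins, probe sequences were not used here, and binding of 1 actin transcript to the probe of another was not tested. In RNA from whole cultures, fewer cells of a type and less RNA per cell cannot be told apart.

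**Figure D2:**
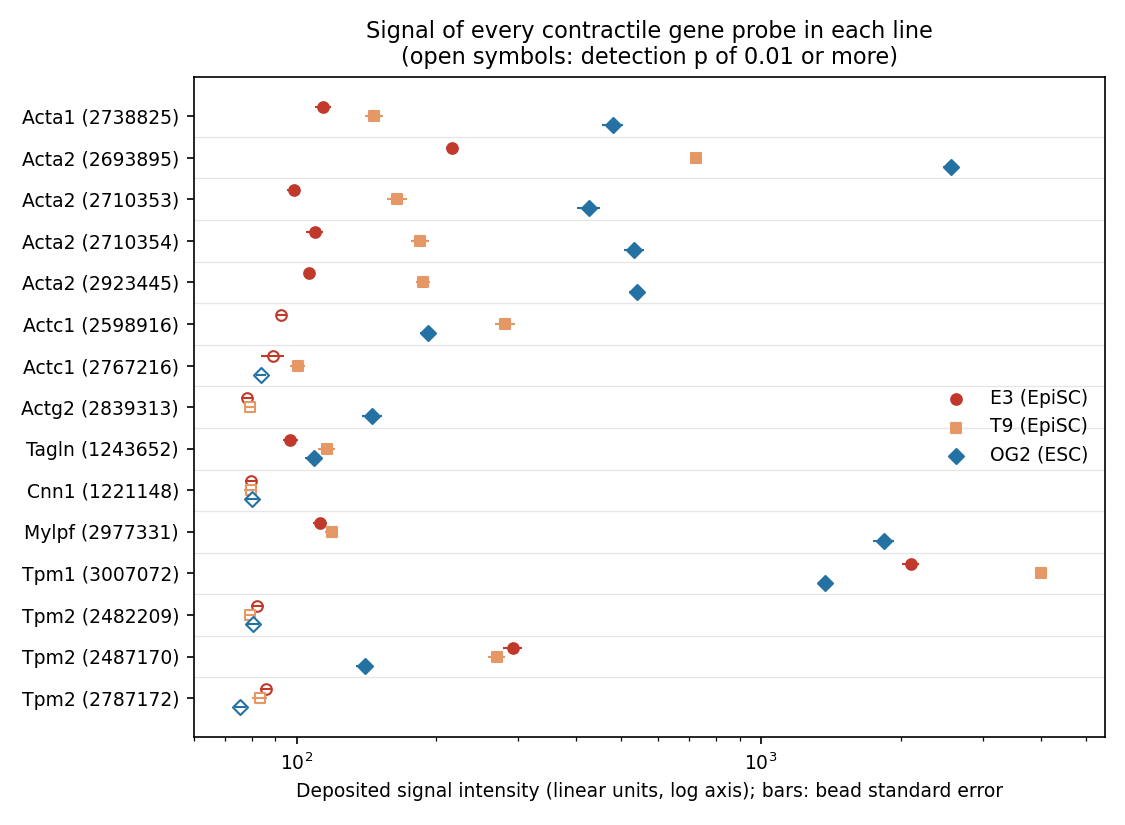
The x axis is the deposited signal intensity on a log axis and each row is 1 probe, with a symbol per line, bars for the bead standard error, and open symbols where the probe was not detected. OG2 stands to the right of both EpiSC lines for Acta1, the 4 Acta2 probes, Actg2 and Mylpf, and to their left for Tpm1 and for the Tpm2 probe ILMN_2487170.

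Of the 12 probes, the one with the largest difference belonged to Mylpf, the light chain of fast skeletal myosin. Its probe ILMN_2977331 had a signal of 112 ± 3.88 in E3 and 119 ± 4.07 in T9, compared with 1841 ± 96.1 in OG2. Both EpiSC lines were close to background although detected, and OG2 was far above either. The log2 difference of the EpiSC mean from ESC was -5.28 ± 0.26 (limma SE, from 2 EpiSC arrays and 1 ESC array). That is a 38.7-fold lower level in EpiSC, at rank 17 from the most negative of 12603 tested probes. The limma SE rests on the gap between the EpiSC lines, drawn towards a value pooled over all tested probes. It holds no spread of ESC. E3 and T9 lay within 2 combined bead standard errors of each other (1.19), so the order of these 2 lines is not resolved.

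Acta2, the vascular smooth muscle actin, was the best covered gene, and its 4 probes ordered the lines alike, with E3 lowest, T9 between and OG2 highest. The brightest probe, ILMN_2693895, had a signal of 216 ± 6.42 in E3 and 726 ± 21.7 in T9, compared with 2569 ± 106 in OG2. The probe ILMN_2923445 had 106 ± 2.60 in E3 and 187 ± 6.33 in T9, compared with 540 ± 19.4 in OG2. On each of the 4 probes all 3 lines lay 7.80 combined bead standard errors or more apart. That measure covers error within arrays and cannot show a difference beyond the spread of arrays or cultures. The probe ILMN_2710354 had 109 ± 4.46 in E3 and 185 ± 8.13 in T9, compared with 533 ± 26.7 in OG2, and ILMN_2710353 had 98.6 ± 3.30 in E3 and 165 ± 7.81 in T9, compared with 426 ± 23.4 in OG2.

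Over the 4 Acta2 probes the log2 difference of E3 from OG2 ranged from -4.10 to -3.50 (11.3-fold to 17.1-fold lower in E3). That of T9 from OG2 ranged from -2.10 to -1.99, or 3.96-fold to 4.28-fold lower in T9. Between the EpiSC lines, E3 was 2.65-fold to 4.33-fold below T9. The EpiSC mean differed from ESC by -3.04 ± 0.95 on the brightest probe (limma SE), a large error that comes from the gap between E3 and T9. The probes share a transcript and an RNA sample and are not replicates of a condition.

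Acta1, the skeletal muscle actin, followed the same order on its single probe. The E3 signal of 114 ± 4.44 and the T9 signal of 147 ± 6.75 stood against 481 ± 25.1 in OG2. OG2 stood apart from both EpiSC lines, and T9 exceeded E3 by 4.08 combined bead standard errors. The EpiSC mean was lower than ESC by a log2 difference of -2.82 ± 0.40 (limma SE), or 7.06-fold, with E3 9.01-fold and T9 5.53-fold below OG2.

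Actg2, the enteric smooth muscle actin, was detected in OG2 only. Signals were 78.0 ± 1.97 (E3) and 79.3 ± 2.11 (T9), against 145 ± 7.45 (OG2). Both EpiSC values lay within the range of the negative controls, at detection p-values of 0.875 and 0.714. With background corrected and the EpiSC arrays at the lowest level that counted as detected, the level was at least 2.94-fold lower in EpiSC.

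Actc1, the cardiac actin, had on its brighter probe the EpiSC lines on opposite sides of OG2, each beyond 2 combined bead standard errors. Tagln, described later, also had them on opposite sides, but within that error for T9. This brighter Actc1 probe, ILMN_2598916, had a signal of 92.7 ± 2.63 in E3 and 281 ± 13.3 in T9, compared with 191 ± 7.18 in OG2. T9 was highest and E3 was not detected (detection p of 0.0251), with each step between lines above 5 combined bead standard errors. T9 was 1.61-fold above OG2, and E3 was at least 4.48-fold below OG2 and at least 7.19-fold below T9. The mean of the 2 EpiSC lines, a log2 difference of -0.81 ± 1.32 from ESC (limma SE), describes neither line. A second Actc1 probe, ILMN_2767216, was detected in T9 only, with 88.8 ± 5.17 in E3 and 101 ± 3.83 in T9, compared with 83.8 ± 2.20 in OG2. On that dim probe T9 was at least 1.15-fold above OG2, at 3.81 combined bead standard errors. E3 and T9 lay within 2 combined bead standard errors (1.83), so their order is not resolved there. Neither E3 nor OG2 was detected on that probe.

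**Figure D3:**
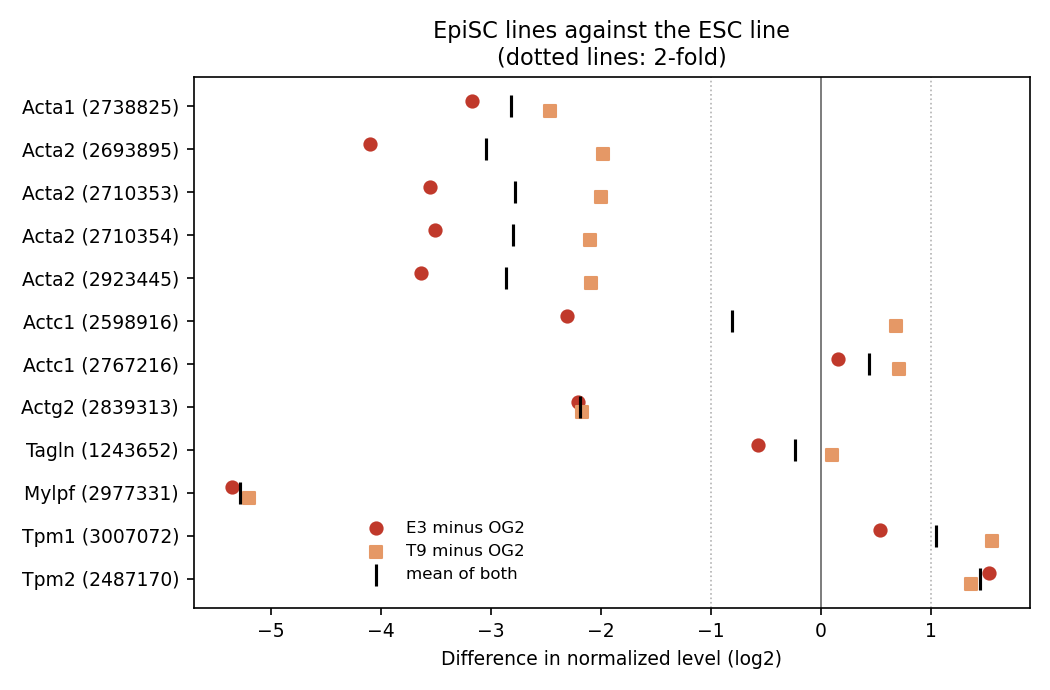
Each row is 1 of the 12 probes detected on at least 1 array, and the x axis is the log2 difference in normalized level of E3 (circles) and T9 (squares) from OG2, with a bar at the mean of both. Mylpf lies at -5.28 with the lines close together, the 4 Acta2 probes between -3.04 and -2.78 with T9 always nearer to 0, and Actc1 ILMN_2598916 at -2.31 in E3, where it was not detected, and 0.68 in T9.

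The tropomyosins went the other way. Tpm1 had a signal of 2100 ± 90.9 in E3 and 4011 ± 107 in T9, compared with 1374 ± 46.2 in OG2. All 3 lines were separated, with T9 highest and OG2 lowest. Its EpiSC mean was 2.06-fold above ESC (log2 1.04 ± 0.51, limma SE), 1.45-fold in E3 and 2.93-fold in T9. Tpm2 on its probe ILMN_2487170 had 292 ± 13.96 in E3 and 270 ± 11.4 in T9, compared with 140 ± 6.15 in OG2. Both EpiSC lines were above OG2, and E3 and T9 were within 2 combined bead standard errors (1.24). The EpiSC mean was 2.72-fold above ESC (log2 1.44 ± 0.26, limma SE). The other two Tpm2 probes, ILMN_2482209 and ILMN_2787172, were detected on no array, with signals from 75.7 to 85.7, and which Tpm2 transcripts each probe reads was not examined.

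The actin-binding proteins of smooth muscle were dim or undetected. Tagln had a signal of 97.0 ± 3.50 in E3 and 116 ± 4.68 in T9, compared with 109 ± 4.35 in OG2. E3 was lowest, and T9 and OG2 lay within 2 combined bead standard errors (1.15). The log2 difference of the EpiSC mean from ESC was -0.24 ± 0.38 (limma SE). Cnn1 was detected on no array, with 79.7 ± 2.09 in E3 and 79.6 ± 2.61 in T9, compared with 80.3 ± 2.75 in OG2. The 3 values lay within their bead errors.

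Of the 12 contractile gene probes detected somewhere, 7 were lower and 3 higher in both E3 and T9 than in OG2, against 39.2% and 42% of all 12603 tested probes, and 2 had the EpiSC lines on opposite sides. A difference of 2-fold or more in both lines was seen downwards for 7 probes and upwards for 1, against 6.64% and 6.15% of all tested probes. The 7 stand for Mylpf, Acta1, Acta2 and Actg2, and 4 of them are Acta2 probes. T9 was above E3 on 11 of the 12 probes (49.4% of all tested probes), and by 2-fold or more on 6 (3.02%), which were the 4 Acta2 probes, Actc1 ILMN_2598916 and Tpm1. E3 was 2-fold or more above T9 on 0 of the 12 (2.31% of all tested probes). The median log2 difference of the EpiSC mean from ESC was -2.48 over the 12 probes and 0.037 over all tested probes. The genes were chosen on these arrays, so nothing is read from these counts.

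Several differences were smaller when background was not corrected. The log2 difference of the EpiSC mean from ESC was then -4.09 for Mylpf, -1.96 for Acta1 and 0.95 for Tpm2. For Actg2 it went from -2.19 to -0.93, under 2-fold, so the bound of at least 2.94-fold rests on the correction. For Acta2 it was then -1.83 on ILMN_2710353, -1.99 on ILMN_2710354 and -2.02 on ILMN_2923445, and -2.75 on the brightest probe. With the authors' processed values, whose making is not stated, it was -5.69 for Mylpf, -3.13 for Acta1, 1.63 for Tpm2 and between -3.25 and -3.07 for the 4 Acta2 probes. For Actg2, blank there in both EpiSC lines and set to the lowest listed value, it was -3.35. Direction was the same for each of these under both alternatives.

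The rest of the contractile apparatus and its regulators was examined in 8 gene lists, with limma over all tested probes and 1 probe, the brightest on average, for each gene. The lists named 145 other genes, of which 126 had a probe and 71 were detected on at least 1 array. Of these 71, 1 rose, 0 fell and 70 did not pass an adjusted p of 0.05, against 1.22% of 8688 genes called over the whole array. At an unadjusted p under 0.05 there were 11 higher and 8 lower, where 24.2% of the 8688 genes had such a p in either direction. The gene that rose was Egr1, an immediate-early transcription factor that SRF activates together with ternary complex factors, with a level of 12.02 in E3 and 12.14 in T9, compared with 5.06 in OG2 (log2 difference 7.03 ± 0.26, limma adjusted p = 0.0317). The median log2 difference of the 71 genes was 0.19.

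Over the whole array 47.6% of gene symbols had no probe detected on any array, and the lists are given beside that share. A probe detected on no array does not show that its transcript was absent, and how well each probe reports was not tested. Of 39 sarcomere genes with a probe, 28 were detected on no array, among them the myosin heavy chains Myh1, Myh4, Myh6, Myh7 and Myh8, the creatine kinase Ckm, the myoglobin gene Mb and the troponins Tnni1, Tnni2, Tnni3 and Tnnt3. E3 had 7 detected, T9 10 and OG2 7. None of the 11 tested passed (median log2 difference 0.30). Myl4, the atrial light chain, was detected in OG2 only and at least 4.55-fold lower in EpiSC (limma adjusted p = 0.0523). Actn3, the alpha-actinin of fast fibres, was detected on its brightest probe in E3 and T9 but not OG2, at least 4.22-fold higher in EpiSC (limma adjusted p = 0.0525). Over the 3 tested Actn3 probes the log2 difference ranged from 0.58 to 2.40. The muscle enolase Eno3 differed by 1.34 ± 0.25 and the giant filament gene Ttn, not detected in E3, by -1.12 ± 0.37 on the log2 scale.

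In the smooth muscle list 5 of 14 genes with a probe were detected on no array, a smaller share than over the whole array. They were Myh11, the smooth muscle myosin heavy chain, Lmod1, Mylk, Pln and Synpo2. Of 9 tested genes 0 passed, with 4 higher and 3 lower in both EpiSC lines and a median of -0.07, where 42.9% of all tested genes were higher and 38.7% lower in both. The adhesion molecule gene Mcam was 5.52-fold lower in EpiSC (level 5.82 in E3 and 5.95 in T9, compared with 8.35 in OG2, limma adjusted p = 0.0525). Over the 3 tested Mcam probes the log2 difference ranged from -2.47 to -1.01. The LIM protein genes Csrp2 and Pdlim3 differed by -1.21 ± 0.30 and 1.47 ± 0.34, and the intermediate filament gene Des by 0.40 ± 0.42.

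Of 24 muscle transcription factors with a probe, 15 were detected on no array, including the myogenic factors Myod1, Myf5 and Myf6, the SRF cofactor Myocd and the cardiac factors Nkx2-5, Gata4, Tbx5 and Hand2. None of 9 tested passed. In both EpiSC lines 4 were higher and 1 was lower, against 42.9% and 38.7% of all tested genes. For 4 the lines lay on opposite sides of OG2. Of the TEAD factors, which bind the MCAT motif, Tead2 had a level of 11.56 in E3 and 11.96 in T9, compared with 9.79 in OG2 (limma adjusted p = 0.0805). Tead4 was detected on its brightest probe in OG2 only, at least 4.01-fold lower in EpiSC (limma adjusted p = 0.0578). Over the 3 tested Tead4 probes the log2 difference ranged from -2.25 to -0.82. The MADS-box factor gene Mef2b had an EpiSC mean 5.53-fold above ESC (adjusted p = 0.106 by limma), and the heart progenitor factor Isl1 lay at 7.31 in T9, compared with 5.16 in OG2, and was not detected in E3.

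SRF itself was detected on all arrays. Srf had a level of 8.04 in E3 and 8.60 in T9, compared with 7.44 in OG2 (log2 difference 0.89 ± 0.35, limma adjusted p = 0.240). Its cofactors Mrtfa, Mrtfb and Elk4 were not detected on any array, and Elk3, not detected in E3, differed by -0.26 ± 0.35. Of 12 tested targets of SRF with the actin-sensing MRTF cofactors outside muscle, 0 passed, with a median of 0.14. In both EpiSC lines 4 were higher and 4 lower, against 42.9% and 38.7% of all tested genes, and 4 had the lines on opposite sides. The matrix protein gene Ccn1 differed by 1.55 ± 0.78, the focal adhesion gene Zyx by 1.09 ± 0.70, Ankrd1 by -1.76 ± 0.51 and the actin-disassembly gene Wdr1 by -0.90 ± 0.37. The 3 tested Ccn1 probes ranged from 0.10 to 1.55. T9 was above E3 for 11 of these 12 genes, and for 49.3% of all tested genes. Of 9 tested immediate-early targets Egr1 alone passed, and Fos, with 9.24 in E3 and 10.34 in T9, compared with 5.11 in OG2, did not (25.6-fold above ESC, adjusted p = 0.0604 by limma). Junb differed by 0.59 ± 0.74, and Egr2 and Egr4, detected in both EpiSC lines but not in OG2, were at least 2.12-fold and at least 1.02-fold above ESC. Both EpiSC lines were above OG2 for 5 of the 9, against 42.9% of all tested genes. The lines lay on opposite sides of OG2 for 4, Junb among them, and the list median was 0.59.

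Of 14 non-muscle counterparts with a probe, such as cytoplasmic actin and its partners, 1 was detected on no array, the cytoplasmic actin gene Actg1. Of the 13 tested, 0 passed, with a median of -0.31. In both EpiSC lines 4 were higher and 7 lower, against 42.9% and 38.7% of all tested genes. The calponin gene Cnn3 differed by -1.09 ± 0.29, the alpha-actinin gene Actn4 by -0.88 ± 0.36 and the myosin heavy chain gene Myh10 by 0.72 ± 0.28. Tagln3 was detected in T9 only, with a level of 5.35, compared with 4.52 in E3 and 4.26 in OG2, where it was not above background. Of 8 genes with a probe that set the phosphorylation of myosin light chains, Mylk and Rhoa were detected on no array. Of the 6 tested 0 passed, with a median of 0.24. The 6 ranged from Dapk3 at -0.38 ± 0.25 to Rhob at 0.58 ± 0.52, with Rock1 at 0.26 ± 0.27 and Ppp1cb at 0.35 ± 0.25.

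**Figure D4:**
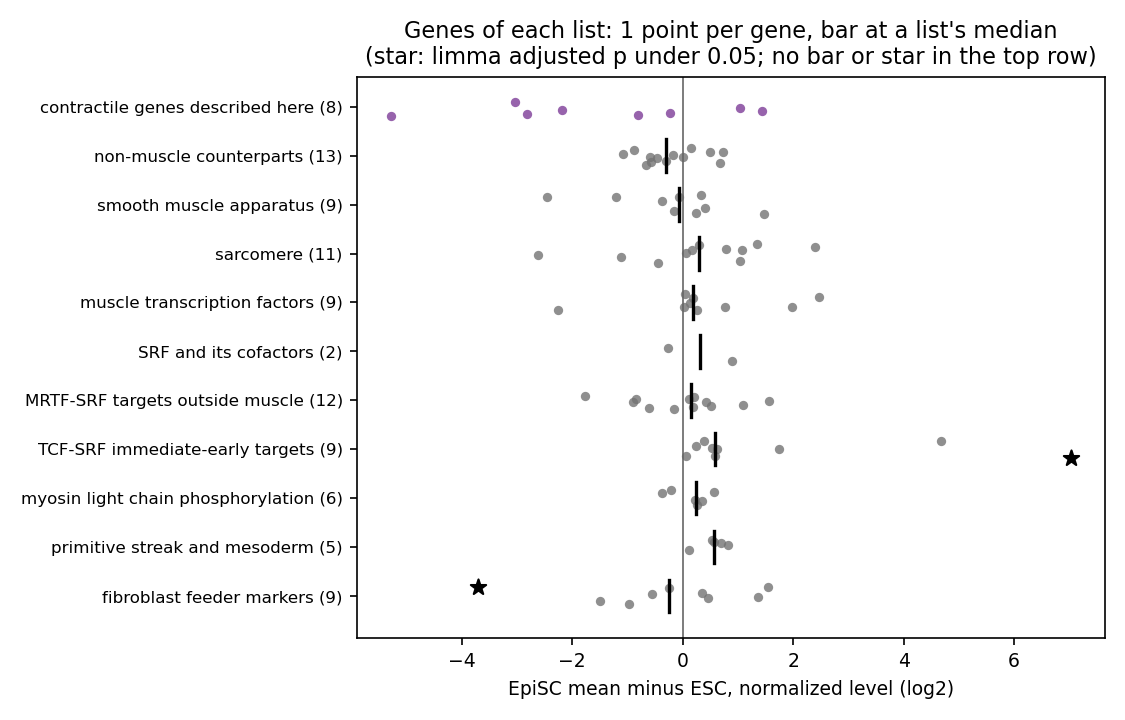
Each point is 1 gene by its brightest tested probe, and the x axis is the log2 difference of the EpiSC mean from ESC, with the number of genes in brackets, a bar at each list's median and a star for genes past the limma threshold. The described contractile genes range from Mylpf at -5.28 to Tpm2 at 1.44, and of the other lists shown only Egr1 (7.03) and the fibroblast gene Lox (-3.70) carry a star.

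Fibroblasts are a known source of Acta2 and Tagln, and feeders were used for the EpiSC lines only. Of 15 fibroblast markers with a probe, 5 were detected in E3 and 7 in T9, compared with 8 in OG2. Their summed background-corrected signal, with undetected markers included, was 644 in E3 and 900 in T9, compared with 792 in OG2. A few bright genes carried much of these sums, which do not measure fibroblast content. Before correction Mmp2 had 318 in E3, 638 in T9 and 206 in OG2. Thy1 had 286 in E3, 121 in T9 and 101 in OG2, and Lox 93.8 in E3, 88.1 in T9 and 377 in OG2. Col1a2, Col3a1, Pdgfrb, Postn, Prrx1 and S100a4 were detected on no array. In both EpiSC lines 3 of the 9 tested markers were higher and 4 lower, against 42.9% and 38.7% of all tested genes. The collagen crosslinking gene Lox fell in EpiSC, by at least 11.5-fold (limma adjusted p = 0.0342). The other 8 did not pass, among them Col1a1 (log2 difference -1.50, not detected in E3) and Dcn (-0.96), and, above OG2 in the EpiSC mean, the surface marker Thy1 (1.55) and the matrix protease Mmp2 (1.36). Of 8 primitive streak and mesoderm markers with a probe, 1 was detected in E3, 4 in T9 (Eomes, Mixl1, Mesp1 and Tbx6) and 0 in OG2. Their summed signals were 52.3 in E3 and 176 in T9, compared with 46.8 in OG2. Undetected markers are included, so the OG2 sum holds no detected marker. The part of either cell type in the contractile gene levels was not tested.

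For the 5 genes whose brightest probe spanned at least 2 log2 units over the 3 lines, the named genes with the most similar centred profile were found by Euclidean distance on the log2 scale. With 3 arrays many genes can share a profile, so this is a description of shape only. Mylpf was nearest to the aquaporin gene Aqp3 (distance 0.10), Fmr1nb (0.11) and the naive factor gene Tbx3 (0.14). Acta1 was nearest to the growth factor gene Bmp4 (0.022), Cmtm7 (0.087) and the tetraspanin gene Cd9 (0.13). Acta2 was nearest to the transcription factor genes Klf2 (0.37) and Tfap2c (0.38) and to Zfp985 (0.68). Actc1 was nearest to the homeobox gene Meis2 (0.084), the growth factor gene Igf2 (0.13) and Sox21 (0.37). Actg2 was nearest to the autophagy kinase gene Ulk1 (0.013), Aoah (0.024) and Chst8 (0.043). Actg2, Aoah, Chst8, Fmr1nb and Tbx3 were not detected in either EpiSC line, nor Actc1 and Aqp3 in E3, so these distances partly compare levels that were not above background. Between the 5 genes themselves the smallest distance was that of Acta1 and Actg2, at 0.70, and Mylpf was 2.04 from its nearest, Acta1.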

How the data were processed

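RNA (400 ng per line, 12 h of in vitro transcription) was run on 1 array for each of 3 mouse lines, per the labels' protocols, and lines were grouped by sample title. The deposited tables hold, per the file headers, a linear signal intensity per probe, its bead standard error and a detection p-value. These intensity values, as the authors deposited them, start at 66.7 to 70.5, so no background had been subtracted, and their detection p-values move in steps of 1 in 798. BeadStudio is named in the submitters' processing notes, without a version. The OG2 table's header writes the line as O2. A table of the authors' processed intensity, of unstated method (medians 81.0 in E3, 80.8 in T9 and 80.8 in OG2), served as an alternative, with blanks at the lowest listed value.

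Background was corrected with nec of limma 3.58.1 (R 4.3.3, offset 16, which understates folds of dim probes), and log2 values were quantile normalized. A probe counted as tested if its detection p was under 0.01 in any line. The 12603 such probes were fitted with lmFit and eBayes, two-sided, with Benjamini-Hochberg adjustment over all of them. The error of a probe comes from its gap between E3 and T9, drawn by eBayes towards a value pooled over all tested probes. For Actg2 the SD of the EpiSC lines was 0.023, and the limma SE was 0.25. The ESC array supplies no spread. The p-values hold no culture replicate, and the number of arrays limits the precision. A fold is "at least" where a side was not detected, with that side at its array's lowest detected level or its own level, whichever was higher. The limma test was tried on simulated arrays under more than 1 model of the noise. The share of changes recovered and the number of false calls depended strongly on the model, and under the model kept false calls exceeded the nominal rate, so adjusted p-values near the threshold are uncertain.

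Of 25697 probes, 23978 had 1 gene symbol, 0 several and 1719 none. The contractile genes and gene lists were chosen with earlier results of these data known. The promoter motifs, the yardstick of 2 combined bead standard errors and the criterion for singling out Actc1 were chosen after values were seen. From the lists, the genes named with a difference were those past the threshold and some or all of the next 4 by mean difference, beside genes listed by detection alone, and for likeness the 3 nearest named genes.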

Additional observations from a re-analysis of the deposited data

Results flagged for a closer look

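Actc1 (probe ILMN_2598916) stands out because the EpiSC lines lay on opposite sides of the ESC line, each by more than 2 combined bead standard errors. The log2 difference from OG2 was -2.31 in E3 and 0.68 in T9. The probe was not detected in E3, so the E3 value rests on a signal not above background, and what was measured is a level at least 4.48-fold below OG2. With 1 array per line, the difference between these effects was not tested. On the second Actc1 probe, ILMN_2767216, both lines lay above OG2, by a log2 difference of 0.15 in E3 and 0.71 in T9. That probe was dim, and E3 and OG2 were not detected on it.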

How the results depend on the processing

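Each of the 12 contractile gene differences was recomputed under 7 alternatives of scaling, background, offset, filter and source table, and all 84 values kept their direction. Of these, 71 moved by less than 1 SD of the EpiSC lines and 13 by more, 10 of them towards 0. The detection p under 0.05 and no filter alternatives leave a probe's level unchanged. Their values equalled the main ones by construction and count among the 84 and the 71. Leaving out either EpiSC line gave a log2 difference from -2.31 to 0.68 for Actc1 ILMN_2598916 and from -0.57 to 0.098 for Tagln, so both turned, without E3. The number of these probes at least 2-fold lower in EpiSC, 7, ranged from 7 to 8 when a line was left out. It was 6 without background correction and 8 with the authors' processed table. The number at least 2-fold apart between E3 and T9, 6, became 2 without background correction. Over all genes, 106 passed the limma threshold, against 218 with median scaling, 256 with cyclic loess, 259 with detection p under 0.05, 0 with no filter (3093 at an unadjusted p under 0.05) and 0 with the authors' processed table (2005 at that p). For the 71 other contractile and regulator genes, the count of 1 became 6 with median scaling, 6 with cyclic loess and 6 with detection p under 0.05, in each case Egr1, Fos and Actn3 higher and Mcam, Myl4 and Tead4 lower. It became 2 without background correction (Egr1 and Mcam), 0 with no filter (25 unadjusted) and 0 with the authors' processed table (14 unadjusted). Of called probes 24.8% were higher (36 higher, 109 lower), against 37.2% with median scaling (110 and 186), 35.5% with cyclic loess (122 and 222) and 36.2% with detection p under 0.05 (127 and 224). The cause was not tested. No paired analysis was possible because the labels give no replicate numbers and there is 1 ESC array. Probes near background, such as Tagln, Actg2 in EpiSC and both Actc1 probes in E3, are limited by signal over background.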
